A study of Rattus norvegicus with 18 samples.

Results

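Keratin genes were described in primary cultures of rat collecting duct cells from the inner medulla (IMCD cells), the lining of the last stretch of the kidney tubule, under changes of medium osmolality and under cyclosporin A. A keratin gene was any array feature whose only gene symbol was Krt followed by a number and at most 1 letter, and where a gene had several such features the brightest over all arrays stood for it. This rule found 44 genes among 14499 genes with a symbol, and 47 features among 28328. The 18 arrays formed 6 groups of 3. The 300 culture and the 600 culture were grown at 300 and at 600 mosmol/kg. The 600 challenge was the 300 culture switched to 600 mosmol/kg for 24 h, and the 900 challenge was the 600 culture switched to 900 mosmol/kg for 24 h. Either challenge was run without drug and with 5 µM cyclosporin A, which blocks the phosphatase calcineurin. No group received the drug without a challenge, and no group had a medium change at an unchanged osmolality. The cells came from the inner medulla, and the labels name no purification and do not say whether the arrays of a group were separate animals or cultures, so p-values rest on a spread between arrays that may be technical only.

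Keratins are the intermediate filament proteins of epithelial cells. Filaments form only from pairs of an acidic type I and a basic type II keratin, and a keratin without its partner is usually degraded. Simple epithelia such as kidney tubules use Krt8 with Krt18, joined in ducts by Krt7 and Krt19. The basal layer of stratified epithelia uses Krt5 with Krt14, and Krt6, Krt16 and Krt17 are known from wounded and regenerating skin. The hair keratins build the hair shaft and its sheath.

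Levels are the deposited logarithms, of a base not given in the sources used here, so differences are in log units and a fold is given under base 2 and under a natural logarithm. Array medians lay between 3.564 and 3.649, so the arrays shared a scale. Since the files carry no detection call, the background was read from 187 olfactory and vomeronasal receptor genes, which kidney cells are taken to express little. Their 95th percentile, 4.10, was the threshold, and 40.8% of all features had a mean above it. Levels of different genes come from different probes, so their order by level is a description only and no difference between genes was tested.

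The start regions of 3 keratins are shown because Krt8 and Krt18, the pair of simple epithelia, lie side by side in the genome and fell together, while Krt23 had the largest rise of the 44 keratins at both challenges. These 3 are the members described below that the RefSeq promoter table (build GRCr8) held. Each window runs from 250 bases before to 50 bases after the start given there. The windows are chr7:135010290-135010589 on the minus strand for Krt8, chr7:135035918-135036217 on the plus strand for Krt18 and chr10:84946880-84947179 on the minus strand for Krt23. Capitals mark matches to 4 motifs searched on both strands: the TATA box (TATAAA), the AP-1 site (TGANTCA), the GC box (GGGCGG) and the core of an NFAT site (TGGAAA), NFAT being the factor that calcineurin activates.
Krt8: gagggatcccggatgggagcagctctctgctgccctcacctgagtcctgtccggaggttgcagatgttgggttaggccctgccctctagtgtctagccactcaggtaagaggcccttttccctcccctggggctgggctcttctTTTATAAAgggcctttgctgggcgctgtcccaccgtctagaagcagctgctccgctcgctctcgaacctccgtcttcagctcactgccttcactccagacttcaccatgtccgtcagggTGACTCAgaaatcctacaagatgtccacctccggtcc
Krt18: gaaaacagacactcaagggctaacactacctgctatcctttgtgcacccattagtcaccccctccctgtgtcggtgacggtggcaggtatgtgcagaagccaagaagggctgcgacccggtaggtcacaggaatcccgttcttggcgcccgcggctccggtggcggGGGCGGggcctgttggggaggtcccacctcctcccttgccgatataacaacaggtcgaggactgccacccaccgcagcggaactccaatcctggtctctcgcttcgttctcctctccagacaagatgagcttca
Krt23: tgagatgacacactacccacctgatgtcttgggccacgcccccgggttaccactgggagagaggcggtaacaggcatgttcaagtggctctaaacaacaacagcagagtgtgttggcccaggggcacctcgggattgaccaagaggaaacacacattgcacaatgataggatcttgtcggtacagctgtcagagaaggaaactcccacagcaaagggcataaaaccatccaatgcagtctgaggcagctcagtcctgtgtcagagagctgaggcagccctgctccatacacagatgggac
The Krt8 window held TATAAA beginning at base -104 from the start, which also reads as a match on the other strand that overlaps it. It also held an AP-1 match that begins at base 14. The given start of Krt8 falls on the letters atg, where its protein-coding part opens. Both Krt8 positions thus count from that point, and the AP-1 match lies within coding letters. The Krt18 window held 1 GC box, beginning at base -84. No match to any of the 4 motifs was found in the Krt23 window. Of 33469 promoters of the same length, 14.2% held TATAAA, 7.33% the AP-1 letters, 33.1% the GC box and 22.7% the NFAT core. The share of G and C was 59% for Krt8, 60.3% for Krt18 and 54% for Krt23. A match is a description of letters, and binding was not measured.

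Of the 44 keratins, 5 had a mean over all arrays above the background threshold: Krt18 (7.84), Krt8 (7.77), Krt19 (6.69), Krt7 (5.85) and Krt80 (4.38). The mean of Krt80 in the 900 challenge with cyclosporin A, 3.86, was under the threshold. A further 3 had a mean over all arrays under it and were above it only in some groups. Krt17 (mean 3.75) was above it in the 300 culture and in both 600 challenges, with the drug and without. Krt14 (mean 2.59) was above it in the 300 culture alone, and Krt23 (mean 3.17) in the 900 challenge with cyclosporin A alone. The other 36 were at background, with means from 1.21 to 3.07, all under the receptor genes' median of 3.28 and with no group mean over 3.23. The members next to the threshold were Krt19, Krt7 and Krt80 above it and Krt17, Krt23 and Krt85 (3.07) below it.

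**Figure D1:**
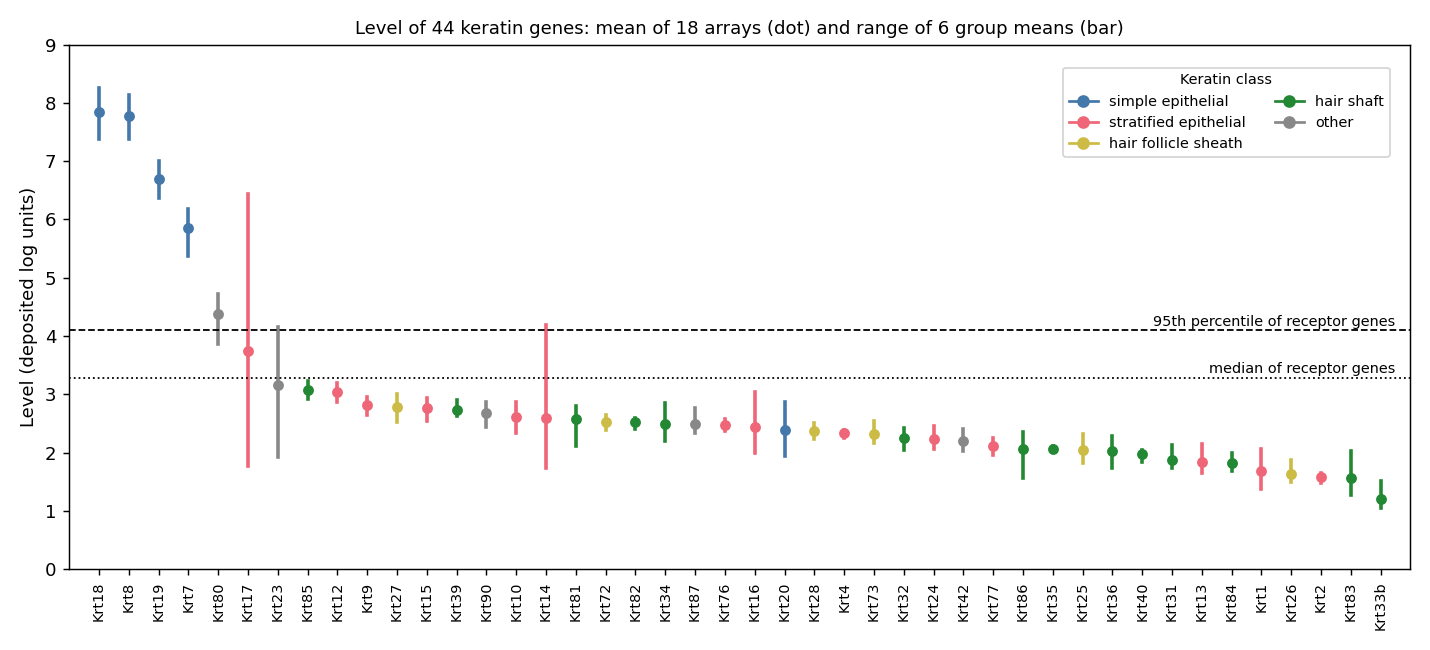
Level of each of the 44 keratin genes in deposited log units, as the mean of 18 arrays (dot) and the range of the 6 group means (bar), coloured by keratin class. The dashed line is the background threshold of 4.10 and the dotted line the receptor genes' median of 3.28. The bars of Krt80, Krt17, Krt14 and Krt23 cross the threshold, and 36 bars lie wholly below the receptor genes' median.

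By class, 4 of 5 keratins of simple epithelia were above background, and the fifth, Krt20, known from gut and bladder surface cells, was not (mean 2.39). Of 14 keratins of stratified epithelia, 12 were at background and 2, Krt14 and Krt17, were above it in some groups. All 6 keratins of the hair follicle sheath and all 14 of the hair shaft were at background. Of the 5 keratins outside these classes, Krt80 was above background and Krt23 was so in some groups. The type I set counted 26 genes, 25 of them on chromosome 10, and Krt18 was the exception on chromosome 7 with all 18 type II genes. In the reference gene table Krt8 and Krt18 had no protein-coding gene between them, and neither did Krt80 and Krt7, or Krt16 and Krt17. Members above background in all or some groups had neighbours at background: Krt20 was next to Krt23, and Krt15 next to Krt19. The reference table lists 54 keratins, and the 10 without a feature of their own, among them Krt5, Krt6a and Krt6c, the partners of Krt14, Krt16 and Krt17, were not analysed here.

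Markers of other cells moved with osmolality, and some with cyclosporin A, beside every keratin result below. The summed level of 8 leukocyte markers was 45.0 to 45.6 on the arrays of the 300 culture, 32.7 to 34.3 in the 600 challenge, 31.1 to 33.7 with cyclosporin A, 35.2 to 36.8 in the 600 culture, 24.4 to 24.6 in the 900 challenge and 24.6 to 25.04 with cyclosporin A. It was highest in the 300 culture. At the 600 challenge 7 of 8 markers fell (8.07% of all features did), and at the 900 challenge 8 of 8 (11%). The summed level of 10 fibroblast markers was 59.2 to 60.0, 52.1 to 52.9, 53.6 to 54.2, 56.5 to 56.7, 49.9 to 50.7 and 49.4 to 50.2 in the same order. For 11 markers of principal cells, the main cell of the collecting duct that the labels name, it was 32.4 to 34.0, 34.2 to 34.6, 30.7 to 31.8, 56.4 to 60.2, 62.5 to 62.9 and 60.1 to 61.3. In the 3 groups grown at 300 mosmol/kg only 1 of these 11 markers, Gata3, was above background, against 8 of 11 in the 3 groups grown at 600 mosmol/kg. Of 6 endothelial markers, 5 fell and 1 rose at the 600 challenge (8.07% and 6.36% of all features). At the 900 challenge 2 fell and 1 rose (11% and 6.43%). Their summed levels were 31.9 to 32.1, 29.7 to 30.4, 29.7 to 29.8, 33.0 to 33.6, 31.9 to 32.4 and, on all 3 arrays of the last group, 32.2, in the order above. Of 4 markers of mesothelium, a covering layer that also uses simple keratins, 2 were measured. One of them, Msln, was above background and fell at both challenges and between the cultures, as Krt8 and Krt18 did, with means of 6.02 in the 300 culture, 5.43 in the 600 challenge, 5.10 with cyclosporin A, 5.45 in the 600 culture, 5.07 in the 900 challenge and 4.96 with cyclosporin A. Urothelium, which lies next to the inner medulla and expresses Krt7, Krt19 and Krt20, had 4 of 8 markers measured, all at background in every group, with summed levels from 8.86 to 11.2. Some markers were called for cyclosporin A against the same challenge without it. At the 600 challenge 1 of 11 principal cell and 1 of 2 mesothelium markers fell. There 1 of 10 fibroblast markers rose (0.409% of all features were called). At the 900 challenge 2 of 10 fibroblast markers fell and 1 rose. There 1 of 8 leukocyte and 1 of 6 endothelial markers rose (0.505% of all features were called). No marker level was 0 in any group mean. The part of these other cells in the keratin results was not tested, and in such bulk RNA fewer cells of a type and less RNA per cell cannot be told apart.

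Some keratins changed with osmolality, and not in one direction. Krt8 and Krt18 fell slightly at each osmotic step, Krt17 and Krt14 fell by far more, and Krt19 and Krt23 rose. At the 600 challenge against the 300 culture, 7 of 44 keratins were called by limma at an adjusted p under 0.05 (15.9%), near the 14.4% of all features, with 2 higher (6.36% of all features were) and 5 lower (8.07%). At the 900 challenge against the 600 culture, 8 keratins were called (18.2%, all features 17.4%), with 3 higher (6.43%) and 5 lower (11%). With cyclosporin A, the 600 challenge against the 300 culture had 7 called (15.9%, all features 14.1%), 2 higher (6.21%) and 5 lower (7.85%). The 900 challenge with the drug against the 600 culture had 6 called (13.6%, all features 17.8%), 1 higher (7.27%) and 5 lower (10.5%). Between the cultures themselves, 600 against 300, 8 keratins were called (18.2%, all features 17.2%), 2 higher (8.33%) and 6 lower (8.84%). These shares stand near the background in all 5 comparisons, and the median difference of the 44 keratins lay between -0.072 and -0.012 log units, against -0.024 to 0.026 for all features. Fitted on the compared groups alone, limma called 4 keratins at the 600 challenge and 4 at the 900 challenge, without Krt19 at either. At the 600 challenge that fit called neither Krt8 nor Krt18. The share of all features called by that fit was not counted, so its lower counts cannot be read as a result about keratins. The comparisons with the same culture share its 3 arrays, so their values are given side by side.

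**Figure D2:**
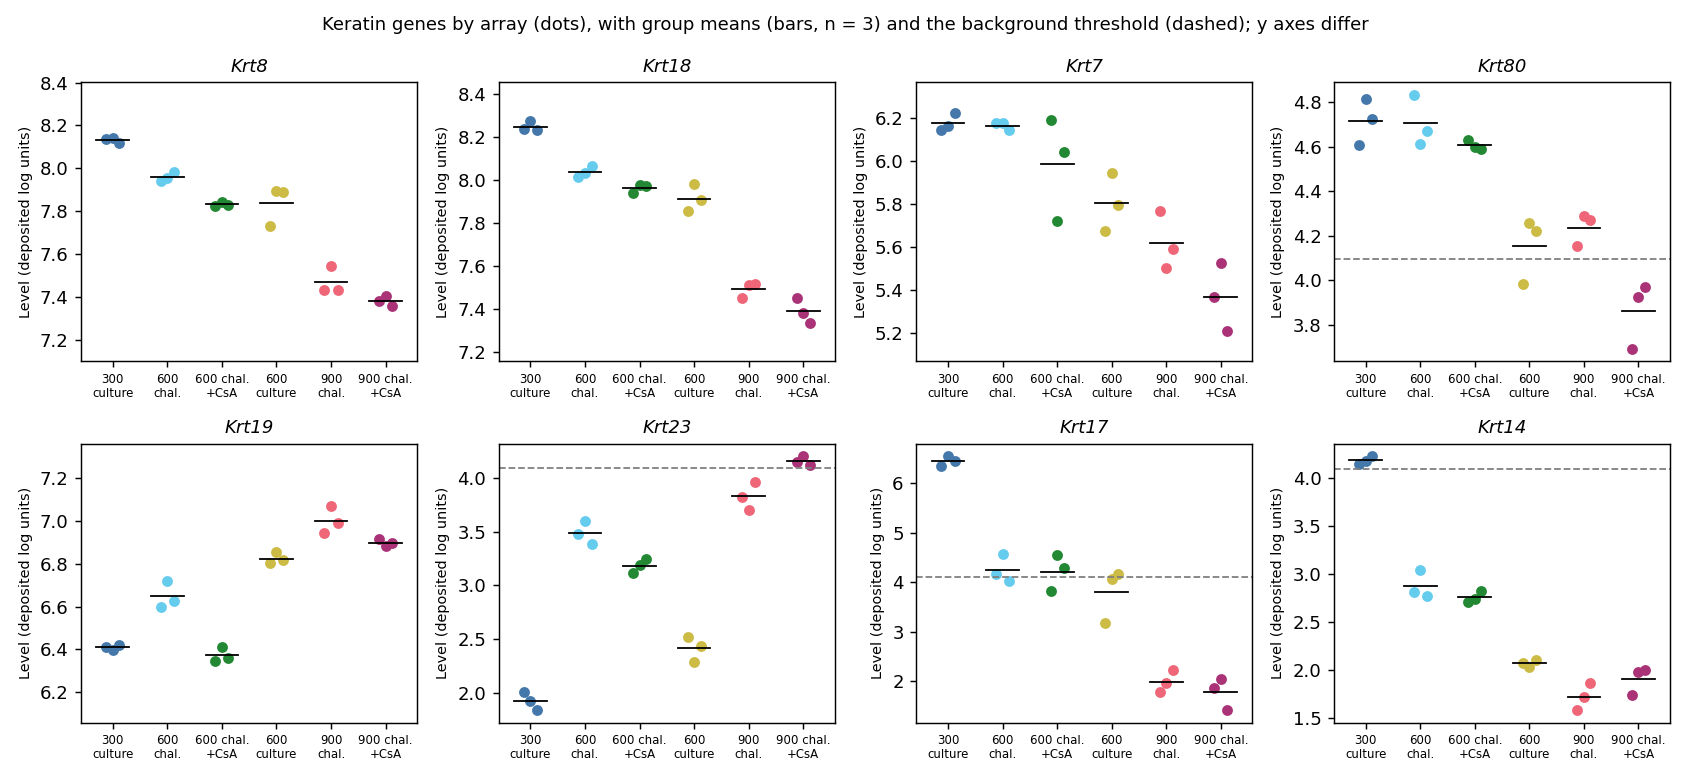
Level of 8 keratin genes on each of 18 arrays (dots) in deposited log units, with group means (bars, n = 3) and, where it falls within the panel, the background threshold of 4.10 (dashed). The y axes differ. Krt8 and Krt18 are highest in the 300 culture and lowest in the 900 challenge with cyclosporin A, Krt19 is highest in the 900 challenge without it, Krt23 rises in each challenge and Krt17 falls from about 6.44 in the 300 culture to under 2.3 in the 900 challenges.

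Krt18, the type I partner of the simple epithelial pair, read 8.24, 8.28 and 8.23 on the 3 arrays of the 300 culture and 8.02, 8.03 and 8.07 in the 600 challenge. It read 7.85, 7.98 and 7.91 in the 600 culture and 7.45, 7.51 and 7.52 in the 900 challenge. No array of a challenge reached the lowest array of its culture. With cyclosporin A it read 7.94, 7.98 and 7.97 at the 600 challenge and 7.45, 7.38 and 7.34 at the 900 challenge. Krt18 fell by 0.21 log units at the 600 challenge (SE 0.046, adjusted p = 0.00571) and by 0.42 at the 900 challenge (SE 0.046, adjusted p = 1.38e-05). The latter is a 1.34-fold fall under base 2 and a 1.52-fold fall under a natural logarithm. The call at the 600 challenge was lost with the mean of all Krt18 features (adjusted p = 0.0579) and with only the groups compared in the fit (0.0536). Krt18 was also lower in the 600 than in the 300 culture, by 0.34 (adjusted p = 8.44e-05).

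Krt8, the type II partner, went the same way. It read 8.14, 8.14 and 8.12 in the 300 culture and 7.94, 7.96 and 7.98 in the 600 challenge. Cells grown at 600 mosmol/kg read 7.73, 7.90 and 7.89, against 7.43, 7.55 and 7.43 after their challenge at 900 mosmol/kg. With cyclosporin A it read 7.82, 7.85 and 7.83 at 600 and 7.38, 7.40 and 7.36 at 900 mosmol/kg. The order of the group means was that of Krt18 except that the 600 culture and the 600 challenge with cyclosporin A, whose arrays overlap for both genes, changed places. Krt8 fell by 0.17 at the 600 challenge (SE 0.05, adjusted p = 0.0317), by 0.37 at the 900 challenge (SE 0.05, adjusted p = 9.87e-05) and by 0.29 between the cultures (adjusted p = 0.00059). The call at the 600 challenge is marginal: it was lost whichever of the 6 arrays was left out, with an adjusted p between 0.056 and 0.0947. The steps to 900 and to 600 mosmol/kg differed by -0.21 for Krt18 (adjusted p = 0.0677) and by -0.20 for Krt8 (adjusted p = 0.115), neither called.

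Other features of both genes gave a check by different probes. The second Krt18 feature (mean 6.01) fell by 0.26 at the 600 challenge (adjusted p = 0.0266) and by 0.43 at the 900 challenge (adjusted p = 0.000642). The third Krt18 feature (mean 3.92) had a mean under the background threshold and was not called in any comparison. The second Krt8 feature (mean 7.19) fell by 0.45 at the 900 challenge (adjusted p = 0.0017), and at the 600 challenge its difference of -0.25 was not called (adjusted p = 0.0658).

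Krt19, a type I keratin with almost no tail that pairs with Krt8 in ducts, ran against Krt8 and Krt18. It read 6.41, 6.40 and 6.42 in the 300 culture and 6.60, 6.72 and 6.63 after the 600 challenge. From 6.80, 6.85 and 6.82 in the 600 culture it went to 6.94, 7.07 and 6.99 in the 900 challenge. Each challenge lay above its culture on all arrays. Krt19 rose by 0.24 log units at the 600 challenge (SE 0.046, adjusted p = 0.00241) and by 0.18 at the 900 challenge (SE 0.046, adjusted p = 0.0146), and it was higher by 0.41 in the 600 than in the 300 culture (adjusted p = 1.11e-05). The call at the 900 challenge was lost without array 1 of the 600 culture (adjusted p = 0.0503) or array 2 of the 900 challenge (0.0724). Cells brought to 600 mosmol/kg over 24 h stayed 0.18 below those grown there (adjusted p = 0.0165), a call lost in 3 of 6 refits that left out 1 array: without array 1 (0.0749) or 3 (0.0578) of the 600 challenge, or array 2 of the 600 culture (0.0629).

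Krt7 and Krt80 are adjacent type II genes, Krt7 of ductal epithelia and Krt80 of many epithelia, where it lies near desmosomes. They were called between the cultures and not at either challenge without the drug. Krt7 read 6.15, 6.16 and 6.23 in the 300 culture, against 6.18, 6.18 and 6.15 in the 600 challenge. The arrays of the 600 culture held 5.68, 5.94 and 5.80 and those of the 900 challenge 5.77, 5.50 and 5.59. With cyclosporin A it read 6.19, 5.72 and 6.04 at 600 and 5.37, 5.52 and 5.21 at 900 mosmol/kg. Each group overlaps its neighbour in the order of means. The differences were -0.013 at the 600 challenge (95% interval -0.26 to 0.23, adjusted p = 0.968) and -0.19 at the 900 challenge (-0.43 to 0.056, adjusted p = 0.328), neither called. It was lower by 0.37 in the 600 than in the 300 culture (adjusted p = 0.0335), a call lost when any array but the second of the 600 culture was left out (adjusted p from 0.0673 to 0.136). Krt80 read 4.61, 4.82 and 4.73 in the 300 culture and 4.83, 4.61 and 4.67 in the 600 challenge. Cells grown at 600 mosmol/kg read 3.98, 4.26 and 4.22, against 4.15, 4.29 and 4.27 after their challenge at 900 mosmol/kg. With cyclosporin A at the 600 challenge it read 4.63, 4.60 and 4.59. The 300 culture and the 600 challenge overlap, and both lie above all arrays of the 600 culture and the 900 challenge. Its differences were -0.011 at the 600 challenge (-0.21 to 0.18, adjusted p = 0.964) and 0.082 at the 900 challenge (-0.11 to 0.28, adjusted p = 0.637), neither called. It was lower by 0.56 in the 600 than in the 300 culture (adjusted p = 0.000363), and the 600 challenge stood 0.55 above the 600 culture (adjusted p = 0.000492).

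Krt17, a type I keratin of hair follicles that wounded skin switches on, had the widest span of group means of all 44 keratins. It read 6.34, 6.54 and 6.44 in the 300 culture and 4.16, 4.56 and 4.02 after the 600 challenge. From 3.17, 4.07 and 4.17 in the 600 culture it went to 1.78, 1.96 and 2.22 in the 900 challenge. All arrays of the 300 culture stood above every other array, and all arrays of the 900 challenge lay below the receptor genes' median. Krt17 fell by 2.20 log units at the 600 challenge (SE 0.26, adjusted p = 3.18e-05), which is 4.58-fold under base 2 and 8.98-fold under a natural logarithm. It fell by 1.81 at the 900 challenge (SE 0.26, adjusted p = 0.000152) and was lower by 2.64 in the 600 than in the 300 culture (adjusted p = 2.67e-06). With cyclosporin A it read 3.81, 4.54 and 4.29 at the 600 challenge and 1.86, 2.05 and 1.42 at the 900 challenge, overlapping the groups without the drug. Since the 900 challenge and the 600 culture have means below the background threshold, no fold is given for them. The 600 challenge and the 600 culture, at one osmolality, differed by 0.45 (-0.11 to 1.00, adjusted p = 0.311), which was not called. Leukocyte and fibroblast markers took the same order over the 300 culture, the 600 mosmol/kg groups and the 900 challenge. In both lists the 600 culture and the 600 challenge changed places, and the part of these cells was not tested.

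**Figure D3:**
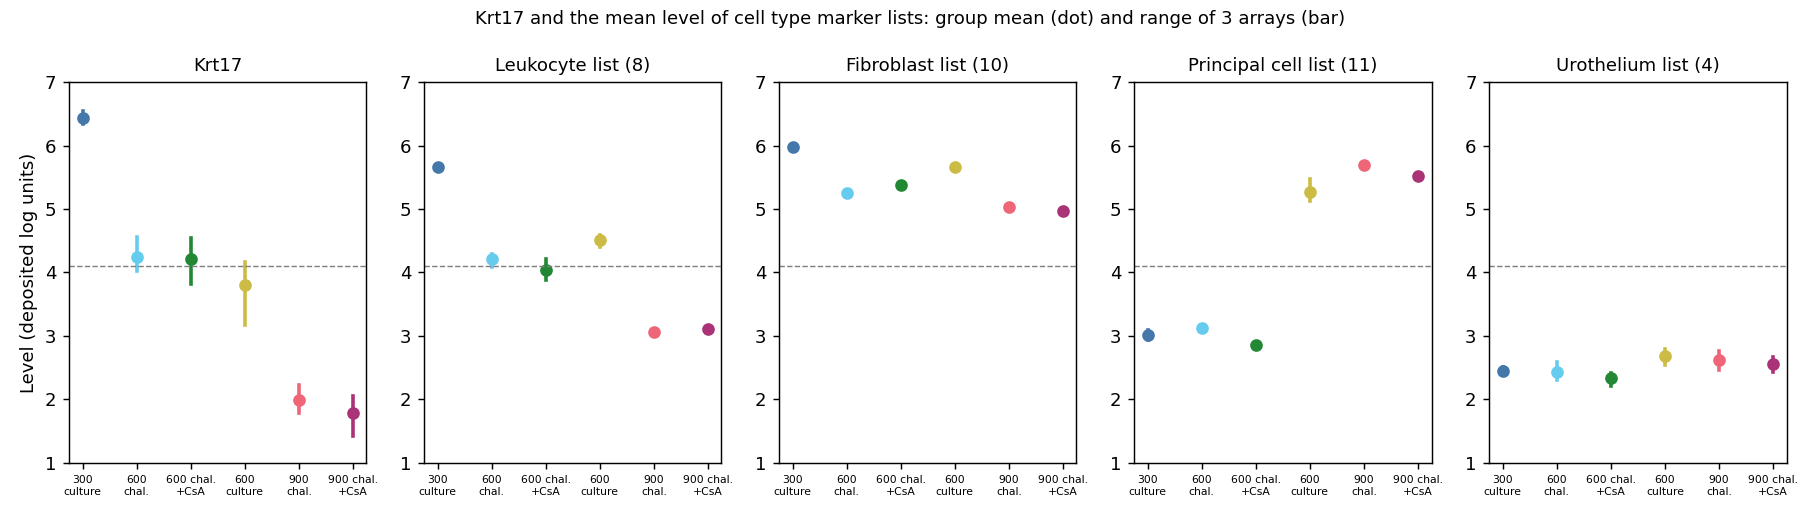
Level of Krt17 and mean level of 4 cell type marker lists in deposited log units by group, as the mean (dot) and range (bar) of 3 arrays, with the background threshold of 4.10 (dashed). The numbers in brackets are the markers measured. Krt17, the leukocyte list and the fibroblast list are highest in the 300 culture and lowest in the 900 challenges. The principal cell list is high in the groups grown at 600 mosmol/kg, and the urothelium list stays below the threshold.

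Krt14, the type I keratin of basal cells, was above background only in the 300 culture. It read 4.15, 4.18 and 4.23 there, 2.81, 3.04 and 2.78 in the 600 challenge, 2.08, 2.04 and 2.11 in the 600 culture and 1.59, 1.72 and 1.87 in the 900 challenge. These 4 groups do not overlap. With cyclosporin A it read 2.71, 2.75 and 2.82 at the 600 challenge and 1.74, 1.99 and 2.01 at the 900 challenge, overlapping the groups without the drug. Krt14 fell by 1.31 log units at the 600 challenge (SE 0.088, adjusted p = 1.3e-07) and by 0.35 at the 900 challenge (SE 0.088, adjusted p = 0.0127), where both groups were below the threshold. The latter call was lost without array 1 of the 900 challenge (adjusted p = 0.0649). The steps differed by 0.97 log units (SE 0.12, adjusted p = 0.000264), the fall being deeper at the step from 300 mosmol/kg. Krt14 was the 1 keratin of 44 called for this difference (2.27%, all features 7.58%), and its level before the 900 challenge (2.07 in the 600 culture) was already under the receptor genes' median. It was lower by 2.11 in the 600 than in the 300 culture (adjusted p = 2.9e-10), and the 600 challenge held 0.80 more than the 600 culture (adjusted p = 1.06e-05).

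Krt16, like Krt17 a keratin of wounded skin, was at background with group means of 3.03 in the 300 culture, 2.41 in the 600 challenge, 2.70 in the 600 culture and 1.99 in the 900 challenge. It was called lower only at the 900 challenge, by 0.71 (adjusted p = 0.0474), a call lost in 4 of 6 refits that left out 1 array: without array 2 (adjusted p = 0.159) or 3 (0.111) of the 600 culture, or array 2 (0.185) or 3 (0.116) of the 900 challenge. Krt14, Krt16 and Krt17 are close relatives in sequence, and cross-hybridisation between their probes was not tested.

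Krt23, a type I keratin known in human cancer cell lines to be induced by histone deacetylase inhibitors, rose in every challenge. It read 2.00, 1.92 and 1.84 in the 300 culture, against 3.48, 3.60 and 3.39 in the 600 challenge. The arrays of the 600 culture held 2.52, 2.29 and 2.44 and those of the 900 challenge 3.82, 3.71 and 3.96. With cyclosporin A it read 3.12, 3.19 and 3.25 at 600 and 4.15, 4.20 and 4.13 at 900 mosmol/kg. The 6 groups do not overlap with their neighbours in the order of means, and the challenges hold the top 4 places. Krt23 rose by 1.57 log units at the 600 challenge (SE 0.08, adjusted p = 1.1e-08) and by 1.42 at the 900 challenge (SE 0.08, adjusted p = 2.89e-08). With the drug it rose by 1.26 at the 600 challenge (adjusted p = 7.7e-08) and by 1.74 at the 900 challenge (adjusted p = 2.37e-09). The steps without the drug differed by -0.15 (-0.40 to 0.087, adjusted p = 0.499), which was not called. The 600 culture was higher than the 300 culture by 0.49 (adjusted p = 0.000372), and the 600 challenge stood 1.08 above the 600 culture (adjusted p = 1.77e-07), so the level at 600 mosmol/kg was higher after 24 h than in cells grown there. Most of these group means are below the background threshold, so differences and no folds are given.

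The 600 challenge against the 600 culture compares cells at the same osmolality with different histories. Here 6 keratins were called (13.6%, all features 16.4%), 5 higher (7.69%) and 1 lower (8.74%). Those higher were Krt7, by 0.36 (adjusted p = 0.0415), with Krt80, Krt14 and Krt23 as given and Krt34 at background, and the lower one was Krt19. The Krt7 call was lost in 5 of 6 refits that left out 1 array, all but the one without array 2 of the 600 culture, with adjusted p from 0.0849 to 0.159. Without array 1 of the 600 challenge, 3 keratins were called, and the share of all features in that refit was not counted. Krt18 stood 0.13 higher (adjusted p = 0.0851) and Krt8 0.12 higher (adjusted p = 0.125), neither called. Both were called with an intensity trend and robust prior (adjusted p = 0.00775 and 0.0214), and Krt18 also with a filter on dim features (0.0464) and without array 2 of the 600 culture (0.0484).

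For cyclosporin A against the same challenge without it, 1 keratin was called at the 600 challenge and 0 at the 900 challenge. At the 600 challenge 1 of 44 was called (2.27%, all features 0.409%), and it was Krt19. With the drug Krt19 read 6.35, 6.41 and 6.36, below every array of the 600 challenge without it and overlapping the 300 culture. The difference was -0.28 log units (SE 0.046, 95% interval -0.38 to -0.18, adjusted p = 0.0182). This call was lost without array 2 of the 600 challenge (adjusted p = 0.0938), array 1 of the drug group (0.0902) or array 3 of the drug group (0.0744). With only the groups compared in the fit it was lost by far more (adjusted p = 0.411). Against the 300 culture, Krt19 with the drug differed by -0.038 (adjusted p = 0.687), which was not called. At the 900 challenge Krt19 read 6.92, 6.88 and 6.90 with the drug, a difference of -0.10 (-0.20 to -0.003, adjusted p = 0.452), which was not called.

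At the 900 challenge limma called 0 keratins for cyclosporin A (all features 0.505%). Krt80 with the drug read 3.69, 3.93 and 3.97, below all arrays without it, a difference of -0.37 (-0.57 to -0.18, adjusted p = 0.0998). Its mean with the drug, 3.86, was below the background threshold. Krt23 was higher with the drug on all arrays, by 0.33 (0.16 to 0.50, adjusted p = 0.101). At the 600 challenge Krt23 was lower with the drug on all arrays, a difference of -0.31 (-0.48 to -0.14, adjusted p = 0.152). Both means there, 3.18 with the drug and 3.49 without, were below the background threshold, so this difference sets no limit on a drug effect. At the 900 challenge only the Krt23 mean with the drug was above the threshold. The 2 drug differences in Krt23 were themselves 0.63 log units apart (0.39 to 0.88, adjusted p = 0.082), which missed the threshold. For this difference of drug effects limma called 0 keratins (all features 0.0459%).

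For the other keratins above background, the drug's differences had the following 95% intervals. At the 600 challenge the difference was -0.075 for Krt18 (-0.17 to 0.023), -0.13 for Krt8 (-0.23 to -0.021), -0.18 for Krt7 (-0.42 to 0.061) and -0.10 for Krt80 (-0.29 to 0.094). For Krt17, with its wider spread, it was -0.034 (-0.59 to 0.52). At the 900 challenge it was -0.10 for Krt18 (-0.20 to -0.005), -0.088 for Krt8 (-0.19 to 0.019) and -0.25 for Krt7 (-0.49 to -0.01). None of these 8 differences was called. Krt17 at the 900 challenge and Krt14 at both challenges were below the threshold with the drug and without it, so their differences set no limit on an effect of the drug. Against the 600 culture, the 900 challenge with the drug was lower in Krt7 by 0.44 (adjusted p = 0.0135) and in Krt80 by 0.29 (adjusted p = 0.0379), where the challenge without it was not called; the direct drug differences are those above. The Krt7 call was lost without array 2 of the 600 culture (adjusted p = 0.0669) or array 3 of the drug group (0.0692), and with only the groups compared in the fit (0.0613). That of Krt80 was lost without array 2 (0.148) or 3 (0.128) of the 600 culture, or array 1 (0.17) or 2 (0.0513) of the drug group. It was also lost with only the groups compared (0.179), median centring (0.0705) and quantile normalization (0.0609). The mean of Krt80 with the drug was below the background threshold.

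**Figure D4:**
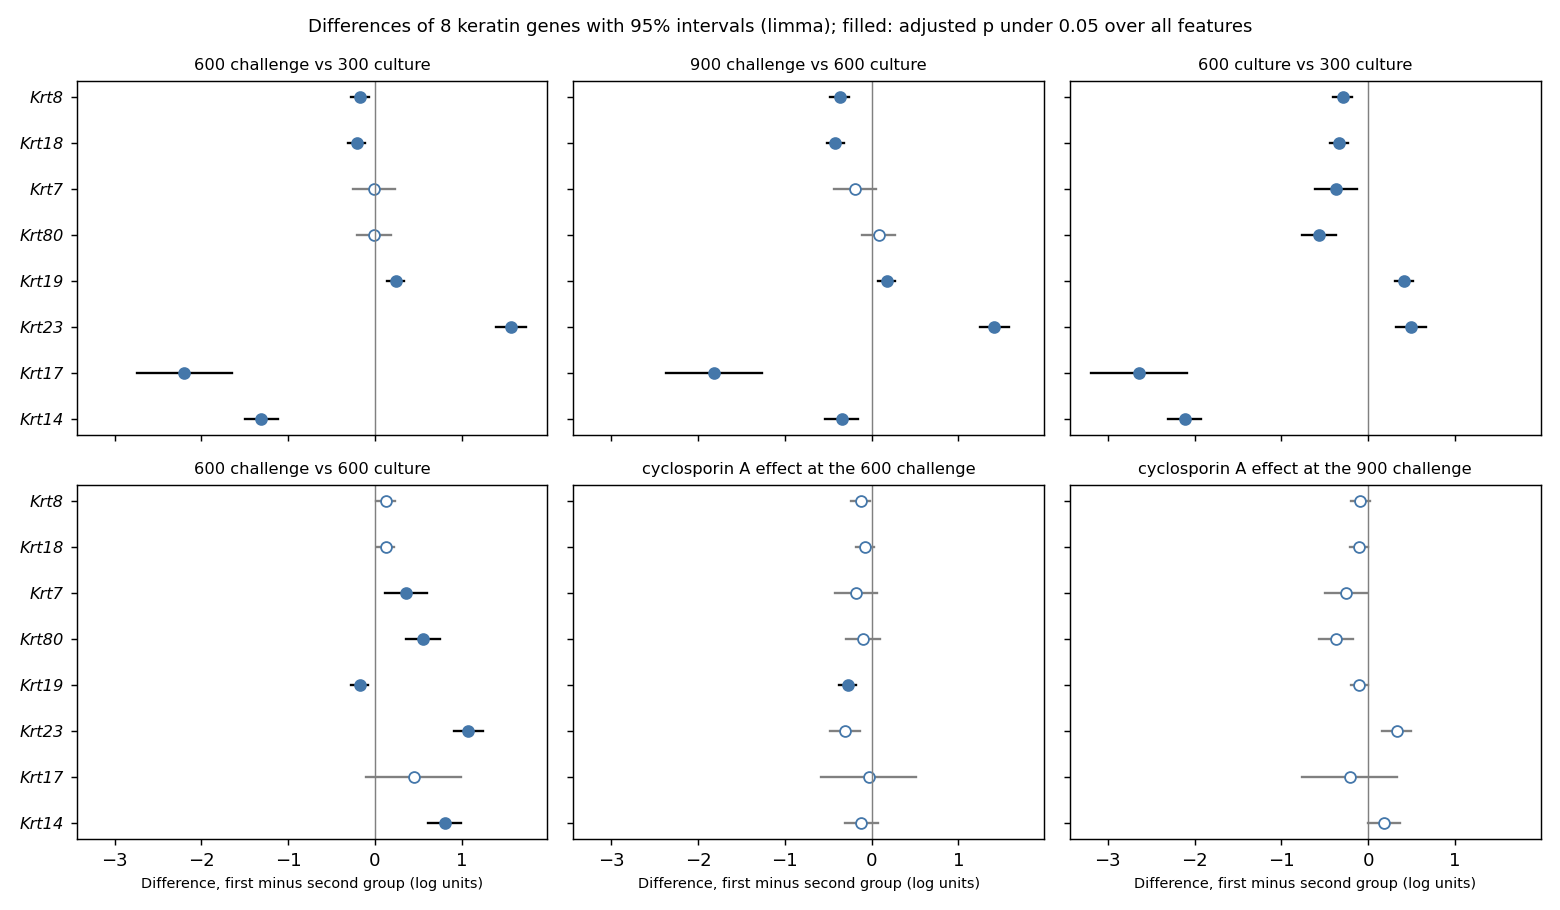
Differences of 8 keratin genes in deposited log units, first group minus second, with 95% intervals from limma, in 6 comparisons. Filled points have an adjusted p under 0.05 over all 28328 features. Krt17 and Krt23 lie farthest from 0 at both challenges without the drug, and Krt19 at the 600 challenge is the single filled point in the cyclosporin A panels.

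Among the 36 keratins at background, levels on single arrays ran from 0.62 to 3.52. The 5 called in at least 1 of 10 comparisons were Krt36 and Krt34 of the hair shaft, Krt1 and Krt16 of skin, and Krt87. How many of all features were called in at least 1 was not counted. Single comparisons called from 0.0459% to 17.8% of all features. Krt36 was lower at the 600 challenge by 0.39 (adjusted p = 0.0254) and with cyclosporin A by 0.55 (adjusted p = 0.00247). Krt1 was higher by 0.69 in the 600 challenge with the drug than in the 300 culture (adjusted p = 0.0495), Krt87 by 0.37 at the 900 challenge (adjusted p = 0.0395) and Krt34 by 0.65 in the 600 challenge against the 600 culture (adjusted p = 0.0446). At these levels none is shown to be expressed. The Krt36 call at the 600 challenge was lost without array 2 or 3 of the 300 culture or array 3 of the challenge (adjusted p up to 0.112). That of Krt34 was lost without array 2 or 3 of the 600 culture or array 1 or 2 of the challenge (up to 0.189). The Krt1 call held in 1 of 6 refits, without array 3 of the 300 culture (otherwise up to 0.206), and the Krt87 call in 1 of 6, without array 2 of the 900 challenge (otherwise up to 0.146).

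Of 14 other intermediate filament genes measured, 5 fell at the 600 challenge, beside 8.07% of all features, and 5 fell at the 900 challenge, beside 11%. The other 9, neurofilament genes among them, were not called at either challenge and had means below the background threshold in every group. Des, the desmin of muscle, fell by 1.43 and 1.27, and Nes, the nestin of progenitor and activated mesenchymal cells, by 0.47 and 0.64. Vim, the vimentin of mesenchymal and cultured cells, fell by 0.35 (adjusted p = 0.000356) and 0.61 (adjusted p = 1.97e-06). The nuclear lamin gene Lmnb1 fell by 0.31 and 0.63. The list's median difference was -0.20 and -0.24 log units, against 0.017 and -0.013 over all features. Des, Nes and Vim are also genes of fibroblasts and muscle-like cells. Of the 10 fibroblast markers, 7 fell at the 600 challenge (8.07% of all features) and 8 at the 900 challenge (11%), and 0 rose. The part of these cells in the falls of Des, Nes and Vim was not tested.

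Desmosomes and cytolinkers, which anchor keratin filaments, moved both ways. Of 16 measured genes, 2 rose (6.36% of all features) and 2 fell (8.07%) at the 600 challenge, and 1 rose (6.43%) and 3 fell (11%) at the 900 challenge. The desmosomal plaque gene Pkp1 rose by 0.50 at the 600 challenge and fell by 0.49 at the 900 challenge, and these steps differed by -0.99 (adjusted p = 1.91e-05). Ppl, the cytolinker periplakin, rose by 0.39 at the 600 challenge and was higher by 1.11 in the 600 than in the 300 culture. Cdh1, the E-cadherin of adherens junctions, fell by 0.51 and 0.24, and Itga6, an integrin of hemidesmosomes, by 0.33 and 0.42. The list's median was 0.074 at the 600 and -0.11 at the 900 challenge.

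Of 12 transcription factors known to act on keratin genes in skin and other epithelia, 4 were called higher at the 900 challenge (6.43% of all features were higher), and 1 of 12 rose at the 600 challenge (6.36%). They were Grhl3 by 1.16, Klf4 by 0.78, Ehf by 0.67 and Klf5 by 0.58 (adjusted p from 2.24e-07 to 0.0129). Grhl3 and Klf4 had means below the background threshold in both groups, so neither is shown to be expressed there. Grhl3 was above the threshold only in the 900 challenge with cyclosporin A (mean 4.34), and Klf4 in no group. Ehf and Klf5 were above it in both groups. Klf5 was the one that rose at the 600 challenge, by 0.31. The step at 900 exceeded that at 600 mosmol/kg for Grhl3 by 1.09 and for Ehf by 0.73. Between the cultures 5 were higher (8.33% of all features) and 1 lower (8.84%) at 600 mosmol/kg, among them, both below the threshold in both cultures, Tfap2a, higher by 0.98, and Cebpb, lower by 1.15.

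The remaining lists held few calls. Of 7 genes of the cornified envelope, the shell of skin cells, 1 fell at the 600 challenge (8.07% of all features did), Tgm1, a transglutaminase, by 0.47, and it was lower by 1.42 in the 600 than in the 300 culture. At the 900 challenge 0 of 7 were called (17.4% of all features were). Of 10 partners and modifiers of keratin filaments, 2 fell at the 600 challenge (8.07%), and 1 rose (6.43%) and 3 fell (11%) at the 900 challenge. Hspb1, a small heat shock protein that binds filaments, fell by 0.45 at the first and rose by 0.41 at the second, a difference of 0.86 (adjusted p = 1.78e-05). Tnfrsf1b, a TNF receptor, fell by 0.34 and 0.65. Of 8 keratin-associated protein genes of hair, 0 were called at the 600 challenge (14.4% of all features were) and 0 at the 900 challenge (17.4%). In the 600 challenge with cyclosporin A against the 300 culture 1 of 8 was higher (6.21% of all features). It was Krtap1-5, at background, higher by 0.88.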

How the data were processed

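Total RNA was amplified and labelled for whole-transcript arrays, per the labels' protocols. The deposited values are log-scale numbers per feature, whose base, summary and normalization by the authors are not given in the sources used here. A test planned for log2 values was run on the deposited log values as they stand, since the base changes no p-value. No filter, pseudocount or background correction was applied. Group differences were estimated by limma 3.58.1 (R 4.3.3) from 6 group means over all 18 arrays (total 14.03 degrees of freedom), with Benjamini-Hochberg adjustment over all 28328 features and a threshold of 0.05, in 8 pairwise comparisons and 2 differences of effects. Symbols came from the platform's probe annotation: 15295 features had 1 symbol, 322 several and 12711 none in the table. All 44 keratin symbols equalled the reference symbol (GRCr8) of the same Entrez gene.

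Keratins were named with values if any group mean was above background or if they were called, and the 3 on either side of the threshold were named. Up to 4 called members of each other list were named, those with the largest differences. The keratins, the lists, the threshold and the alternatives were chosen with earlier results of these data known. On simulated data for the 600 challenge against the 300 culture, 28328 features with 200 changed, limma recovered 47% of changes of 0.5 and 77% of changes of 1 log unit, with 3 false calls. In the deposited data 4087 features were called in this comparison, so these rates describe the simulated setting only.

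Same-numbered arrays of different groups did not deviate together (correlations from -0.129 to 0.073 over 24 pairs), so the numbers were not taken to pair the arrays. Alternatives were a replicate block, only the groups compared, median centring, quantile normalization, an intensity trend with a robust prior, a filter on dim features, the mean of a gene's features, other background thresholds, and leaving out each array in turn.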

Additional observations from a re-analysis of the deposited data

Results flagged for a closer look

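The response of Krt14, the type I keratin of basal cells, differed between the osmotic steps: the change at the 900 challenge minus the change at the 600 challenge was 0.97 log units (95% interval 0.70 to 1.23, adjusted p = 0.000264 by limma). Krt14 fell by 1.31 at the 600 challenge and by 0.35 at the 900 challenge, on all arrays in both cases. The difference was called in each of 12 refits that left out 1 array (adjusted p from 0.000188 to 0.00116). Its level in the 600 culture was 2.07, under the receptor genes' median of 3.28, and its part in the smaller fall was not tested.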

How the results depend on the processing

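No tried setting reversed a called keratin. The share of all features called was counted for the main fit alone. Counts of called keratins under other settings thus stand without such a share. The fall of Krt17 and the rise of Krt23 at both challenges and between the cultures were called under every setting tried. The fall of Krt14 at the 600 challenge and between the cultures was called under every setting that tested it, and the filter on dim features removed it. With only the groups compared in the fit, 4 keratins were called at the 600 challenge and 4 at the 900 challenge. For cyclosporin A at 600 mosmol/kg 0 were called, and Krt19 was lost (adjusted p = 0.411). That fit lost, at the 600 challenge, Krt18 (adjusted p = 0.0536), Krt8 (0.0863), Krt19 (0.0527) and Krt36, a keratin at background (0.0743). Its 4 calls there thus include a keratin that the main fit did not call. At the 900 challenge it lost Krt19 (0.137) and Krt14 (0.0589, or 0.0677 with the trend and robust prior). It also lost Krt87 (0.107) and Krt16 (0.0731) there, both at background. The filter on dim features gave 4 at the 600 challenge with cyclosporin A, 5 at the 900 challenge and 1 for the difference of drug effects (Krt23, adjusted p = 0.0451). The filter left 15 of 44 keratins to test; for the other changes the cause was not tested. The trend and robust prior gave 3 for the difference of steps. With the lower quartile of all values as background threshold, 15 keratins were above it, while 4 to 6 were above under the other thresholds tried. Leaving out 1 array in turn gave 5 to 6 calls at the 600 challenge, 6 to 8 with cyclosporin A, 6 at the 900 challenge, 4 to 7 with cyclosporin A, 0 to 1 for the drug at 600 and 0 at 900 mosmol/kg, 7 to 8 between the cultures, 3 to 6 for the 600 challenge against the 600 culture, 0 for the difference of drug effects and 1 to 3 for that of steps (3 without array 1 of the 600 culture, when Krt8 and Krt18 were called too). Krt8 at the 600 challenge was also lost with median centring (adjusted p = 0.0522) and quantile normalization (0.0625). Both settings also lost Krt16 at the 900 challenge (0.0642 and 0.075). They lost Krt80 in the 900 challenge with cyclosporin A against the 600 culture too (0.0705 and 0.0609). Quantile normalization further lost Krt87 at the 900 challenge (0.0523) and Krt1 in the 600 challenge with the drug against the 300 culture (0.0914). With a replicate block, the calls of Krt7 between the cultures (adjusted p = 0.0515) and in the 600 challenge against the 600 culture (0.0622), of Krt34 (0.0677) and of Krt1 (0.0711) were lost, and no other. With 3 arrays a group, and with no detection calls in the files, small differences and levels under the threshold remain unresolved.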

Other observations

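Krt20, the keratin of simple epithelia that stayed at background, had group means of 1.94 in the 300 culture, 2.19 in the 600 challenge, 2.42 in the 600 culture, 2.87 in the 900 challenge and 2.81 with cyclosporin A, and it was not called in any comparison. Krt85, at background, had group means from 2.92 to 3.23.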
